A study of Mus musculus with 7 samples.

Results

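Collagens are the triple-helical proteins that give bone, cartilage, tendon and basement membranes their strength. The genes examined here are the collagen chain genes of the mouse, taken as those named alone by a probe set under a symbol of the form Col, a number, a and a number. There were 44 such genes among the 19938 genes named in the data, and where a gene had more than 1 probe set, the one with the highest mean signal was used. Of the 44, 40 passed the filter on low signal and were tested, while Col4a4, Col4a5, Col4a6 and Col8a2 lay under it. The genes were grouped by the kind of assembly their chains build, or by tissue for the cartilage class. The classes were fibrillar (8 genes), cartilage (7), basement membrane (9), fibril-associated or FACIT (6), type VI (6), transmembrane (4) and other (4). The cartilage class holds the type II, IX, X and XI chains, which are not counted under the other classes.

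RNA was taken from long bones of male mice aged 39 to 41 weeks once marrow had been taken out and the bone had gone through 4 rounds of collagenase and EDTA, which enriches osteocytes, the cells buried in mineralized matrix. The 4 control mice carry the genotype label wildtype and are littermates by the series title, and the 3 knockout mice carry the label DMP1 cre Mbtps1 knockout. The labels name no treatment for either group, and whether the controls carried a Cre or a loxP allele is not stated in the labels. Dmp1-Cre is known to act mainly in osteocytes and mature osteoblasts, so in whole bone pieces many other cells may keep the gene intact. Deletion by cell type was not measured here. Each mouse gave 1 array, and an array reading cannot tell fewer cells of a type from less RNA per cell.

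Most collagen in bone is type I, a heterotrimer of the Col1a1 and Col1a2 products that osteoblasts secrete and that mineral is laid upon. The chains are hydroxylated and folded in the endoplasmic reticulum, leave the cell in large vesicles, lose their end propeptides and are then cross-linked. Mbtps1 encodes site-1 protease, a Golgi enzyme that releases membrane-bound transcription factors. Among these are the CREB3 family members Creb3l1 and Creb3l2, known for their roles in type I collagen transcription and in collagen export.

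Readings are deposited probe set intensities, and a pair of means ± SD gives the 4 control mice first and the 3 knockout mice second. A log2 fold change is knockout minus control of log2(intensity + 16), with standard error (SE), and comes from limma. This scale understates the change of weak signals, and intensities of different probe sets are not compared as amounts of RNA. The first quartile of intensity per array ran from 40.5 in control 3 to 61.0 in control 4, with the knockouts at 52.8 to 58.2. Mbtps1 read 162, 149, 131 and 152 in controls 1 to 4 and 115, 107 and 154 in knockouts 1 to 3 (log2 fold change -0.23, SE 0.14, limma adjusted p = 0.807). The knockout 3 value lay within the control range, and which exons the probe set reads was not analysed here. The osteocyte markers were present: Dmp1 read 1449 ± 882 in controls and 556 ± 171 in knockouts, and Sost 673 ± 343 and 268 ± 11.2. The summed intensity of 13 osteocyte markers was 6262 to 13470 in controls and 4200 to 5198 in knockouts, so these groups did not overlap. Markers of marrow cells were present too. The neutrophil marker S100a9 read 7522 ± 152 and 6679 ± 716, and the erythroid marker Slc4a1 2351 ± 657 and 2663 ± 109.

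None of the 40 tested collagen chain genes passed the Benjamini-Hochberg threshold of 0.05 in limma, and over all 13956 genes the share was 0%. At an unadjusted p under 0.05, Col12a1 was lower and Col18a1 was higher in knockout bone. That is 1 of 40 members in each direction, where 2.71% of all genes were lower and 3.78% higher by the same rule. The knockouts lay above every control in 3 of 40 members, Col18a1, Col6a1 and Col2a1, against 5.22% of all genes. In no member did every knockout lie under every control, which 2.76% of all genes did. These shares are near the background. The median log2 fold change was 0.14 over the 40 members and 0.07 over all genes, with 29 members above 0 and 11 below. That median was 0.07 without control 3 (all genes 0.09), 0.08 without control 2 (all genes 0.07) and 0.21 without control 4 (all genes 0.03). The share above 0 was 72.5% of members and 67.7% of all genes, and it was 62.5% and 52.8% when each array was centred on its median. Without control 4 and with that centring, it was 70.0% and 34.6%. With the filter on low signal raised to the 50th percentile the order turned, with 64% of 25 members and 67.1% of all genes above 0.

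The intervals show how large a difference in reading these arrays could have missed, on a scale that understates the change of weak signals. Only 7 of the 40 members had a mean level above that of the median gene tested. Col4a3, Col6a4 and Col25a1 lay at percentiles 3.0, 4.1 and 5.6 of level. For such weak members a narrow interval does not bound the change in RNA. The 95% interval of the log2 fold change lay wholly within 1.5-fold in either direction for 32 of the 40 members, and within 2-fold for 39. Over all genes, 82.0% of intervals lay within 1.5-fold. The 8 members with intervals reaching beyond 1.5-fold were Col1a1, Col1a2, Col12a1, Col18a1, Col27a1, Col9a1, Col9a3 and Col6a5. These are not all the widest intervals: the half-width was 0.27 for Col18a1 and 0.40 for Col6a6, which stayed within 1.5-fold. The intervals' half-width had a median of 0.30 and reached 1.03 for Col6a5, a chain of a type VI-like network.

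**Figure D1:**
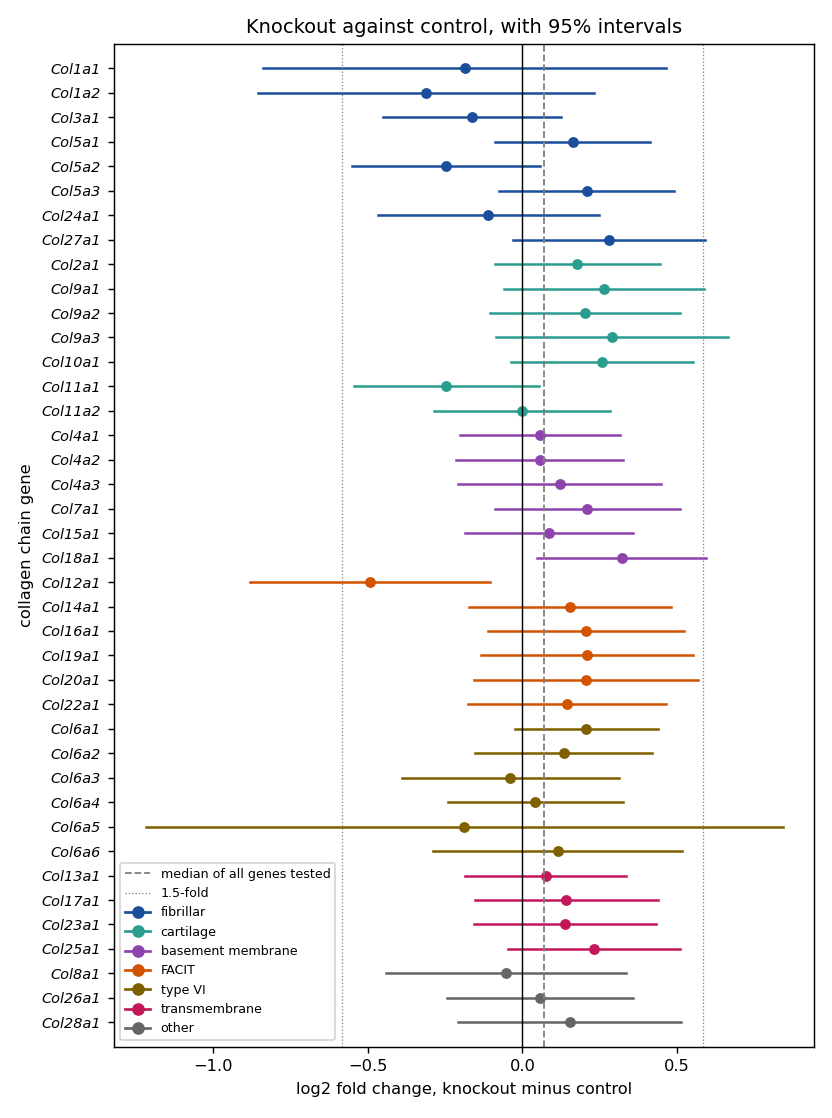
Log2 fold change (knockout minus control) of the 40 tested collagen chain genes as points, with 95% intervals from limma as bars, coloured by class; the dashed line is the median of all genes tested (0.07) and the dotted lines mark 1.5-fold. Col12a1 is the member furthest to the left at -0.49 and Col18a1 the one furthest to the right at 0.32, and 32 intervals lie between the dotted lines.

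Sequence before the transcription start was examined for the genes that RefSeq's promoter table of GRCm38.p6 holds, 35 of the 44 members with 38 start sites. The 250 bases before each start were searched on both strands for TATAAA (the core promoter box), CCAAT (bound by NF-Y), GGGCGG (bound by Sp1-type factors), TGACG (part of the element bound by CREB and ATF factors) and CCACG (the part of the stress response element that ATF6 contacts). GGGCGG was in 22 of 38 member sequences (57.9%) and in 32.7% of all 32851 promoters of that length, beside a median GC content of 59.0% and 52.4%. CCAAT was in 34.2% of member sequences and 33.8% of all, TATAAA in 13.2% and 12.4%, and CCACG in 34.2% and 28.3%. TGACG was in 4 member sequences (10.5%, those of Col11a2, Col24a1, Col4a5 and Col7a1) and in 17.8% of all. The following sequences are shown for Col1a2, the type I chain in the table, and for Col6a1 and Col18a1 (its upstream start site), in which the knockouts lay above the controls. They are written 5′ to 3′ in the direction of the gene, with matches to any of the searched motifs in capitals, and they end at the base before the annotated start. Col1a2 lies at chr6:4505368-4505617, plus strand, Col6a1 at chr10:76726045-76726294, minus strand, and Col18a1 at chr10:77166531-77166780, minus strand.
Col1a2: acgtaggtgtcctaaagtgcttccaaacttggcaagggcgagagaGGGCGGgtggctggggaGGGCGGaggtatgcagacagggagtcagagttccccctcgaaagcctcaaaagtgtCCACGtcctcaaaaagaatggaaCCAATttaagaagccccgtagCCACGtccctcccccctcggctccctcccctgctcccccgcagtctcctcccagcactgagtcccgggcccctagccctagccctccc
Col6a1: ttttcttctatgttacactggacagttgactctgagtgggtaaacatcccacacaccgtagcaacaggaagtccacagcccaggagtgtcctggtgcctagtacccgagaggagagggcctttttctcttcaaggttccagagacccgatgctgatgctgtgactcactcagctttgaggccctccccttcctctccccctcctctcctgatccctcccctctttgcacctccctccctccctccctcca
Col18a1: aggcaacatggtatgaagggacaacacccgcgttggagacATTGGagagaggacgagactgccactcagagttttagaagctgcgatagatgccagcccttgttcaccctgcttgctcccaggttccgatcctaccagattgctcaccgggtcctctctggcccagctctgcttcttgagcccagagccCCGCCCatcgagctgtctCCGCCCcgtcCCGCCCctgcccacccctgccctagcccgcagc

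The Col1a2 sequence held GGGCGG near its left end and a CCAAT box nearer the start, with CCACG on each side of that box. The Col6a1 sequence held none of the searched motifs. The Col18a1 sequence held CCAAT and a cluster of GGGCGG on the reverse strand near the start, while its other annotated start site (chr10:77113706-77113955, minus strand, not printed) held none of the searched motifs. A match is a run of letters and says nothing on binding.

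Type I collagen varied more among the control mice than between the groups. Col1a1, the more abundant chain of the trimer, read 1574, 738, 1909 and 729 in controls 1 to 4 and 1085, 1108 and 807 in knockouts 1 to 3. Controls 1 and 3 were high, controls 2 and 4 were low, and all 3 knockouts lay in the gap between them. The means were 1238 ± 598 and 999.9 ± 167, a log2 fold change of -0.19 (SE 0.30, 95% interval -0.84 to 0.46, limma adjusted p = 0.916). Col1a2, its partner chain, read 1793, 926, 1909 and 947 in the controls and 1194, 1153 and 859 in the knockouts. Here too controls 1 and 3 were high, and knockout 3 was the lowest array of the 7. The Col1a2 means were 1394 ± 530 and 1069 ± 183 (log2 fold change -0.31, SE 0.25, 95% interval -0.86 to 0.23, limma adjusted p = 0.835). Across the controls Col1a1 spanned 2.62-fold and Col1a2 2.06-fold. The residual SD of Col1a1 was larger than that of 99.2% of all genes tested, and that of Col1a2 larger than 98.2%. Leaving out control 3 turned the Col1a1 log2 fold change to 0.06, and leaving out control 4 gave -0.39. The half-width of the 95% interval was 0.65 for Col1a1 and 0.54 for Col1a2, which limits the differences that could be detected here.

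Both type I chains moved together from array to array. The SD over the 7 arrays was 0.54 for Col1a1 and 0.46 for Col1a2 on the log2 scale, and it was 0.14 for the difference between them. The summed intensity of the 6 measured osteoblast markers of 11 listed was 2444 to 3809 in controls and 1977 to 3105 in knockouts, with no listed marker at 0. Control 4, with the lowest Col1a1 reading, had the highest mean log2 level of these markers of the 7 arrays. The part of cell composition in the type I readings was not tested.

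**Figure D2:**
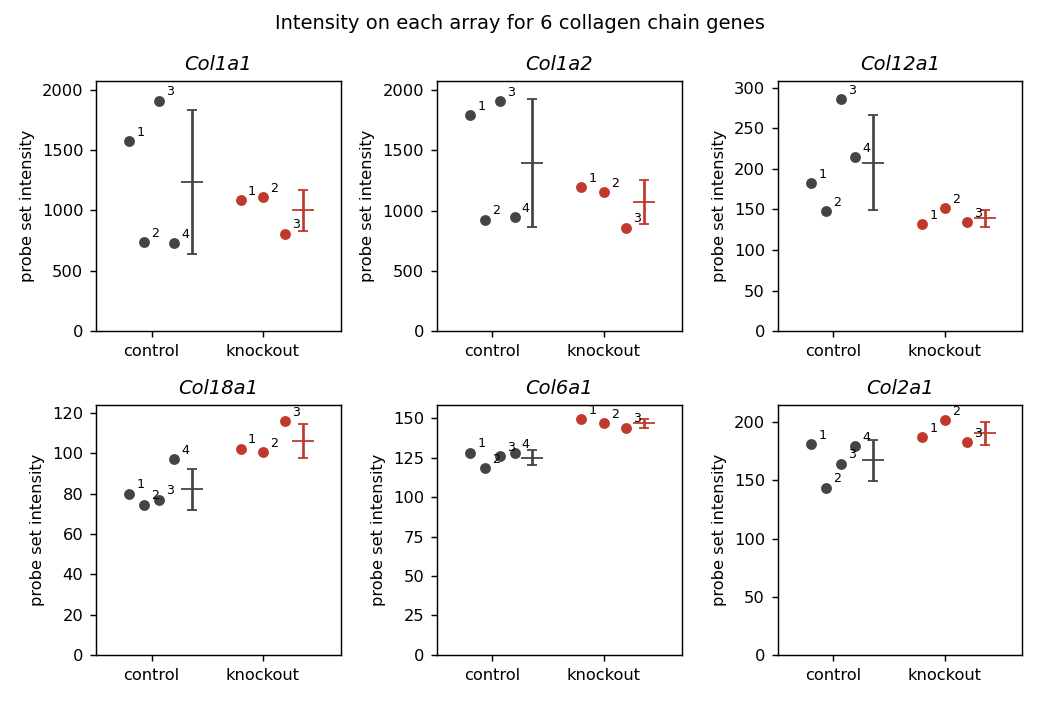
Probe set intensity (linear axis from 0) on each array for Col1a1, Col1a2, Col12a1, Col18a1, Col6a1 and Col2a1; points are arrays, numbered as in the labels, and bars give mean and SD over 4 controls and 3 knockouts. For Col1a1 the 3 knockouts fall within the control range, for Col1a2 knockout 3 at 859 lies under every control, for Col12a1 control 2 at 148 lies under knockout 2 at 151, and for Col18a1, Col6a1 and Col2a1 every knockout lies above every control.

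The other fibrillar chains had log2 fold changes between -0.25 and 0.28. Col3a1, the chain of type III collagen found in vessels and loose matrix, read 170, 142, 197 and 190 in controls and 166, 150 and 144 in knockouts (log2 fold change -0.16, 95% interval -0.45 to 0.13). The groups overlapped, although only control 2 lay under the highest knockout. Col5a2, a chain of the type V collagen that starts type I fibrils, read 120, 90.5, 141 and 121 in controls and 87.7, 101 and 100.2 in knockouts (log2 fold change -0.25, limma adjusted p = 0.805). Its 3 knockouts lay under controls 1, 3 and 4, and knockout 1 also under control 2. Col5a1, which joins Col5a2 in the same trimer, read 123, 104, 103 and 118 in controls and 120, 127 and 134 in knockouts (log2 fold change 0.16, the other side of 0). The SD over arrays of the difference between the type V chains (0.28) was larger than that of Col5a1 (0.13) or of Col5a2 (0.22), unlike the type I pair. The fibrillar genes as a class had a median log2 fold change of -0.14, with 3 above 0 and 5 below. It was the only class of the 7 with a median below 0, but that median vanished (-7.9e-05) with the filter at the 50th percentile. It was -0.05 without control 1, -0.22 without control 2, -0.02 without control 3, -0.05 without control 4 and -0.08 without knockout 3. Col27a1 (0.28) and Col5a3 (0.21) were above 0 and Col24a1 (-0.11) below, and none of these passed the test.

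The collagens around the fibril held the member with the largest log2 fold change in size. Col12a1, whose FACIT product sits on type I fibrils in tendon, ligament and periosteum, read 183, 148, 286 and 215 in controls 1 to 4 and 132, 151 and 134 in knockouts 1 to 3. Control 3 was the highest array and all 3 knockouts lay under controls 1, 3 and 4, but control 2 lay just under knockout 2. The means were 208 ± 58.6 and 139 ± 10.6 (log2 fold change -0.49, SE 0.18, 95% interval -0.88 to -0.11). The limma adjusted p was 0.676 and the unadjusted limma p was 0.0165. Leaving out control 3 gave -0.34, and leaving out knockout 1 gave an unadjusted limma p of 0.0548. After quantile normalization the Col12a1 groups did not overlap (log2 fold change -0.53), and likewise after median centring (-0.55). Beside it, the summed intensity of the 5 tested tendon and fibroblast markers of 8 listed was 1613 to 2703 in controls and 1318 to 1587 in knockouts, with no listed marker at 0. Of the 5, 3 had log2 fold changes below 0 and 2 above. Dcn, which encodes the fibril-binding proteoglycan decorin, had the largest readings in this sum, 1459 ± 444 and 799.5 ± 134 (-0.82). Pi16 (0.27) went the other way, with every knockout above every control, and Scx had 0.13. The part of these cells in the Col12a1 reading was not tested.

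The 5 other genes of the FACIT class had log2 fold changes between 0.14 and 0.21, and none passed. Col16a1 read 122, 96.5, 94.97 and 148 in controls and 138, 127 and 136 in knockouts, so control 4 was the highest array and controls 2 and 3 the lowest. Col14a1, Col19a1, Col20a1 and Col22a1 also had control 4 as their highest control.

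Type VI collagen forms beaded microfibrils around cells, with Col6a1, Col6a2 and Col6a3 as its main chains. Col6a1 read 128, 118, 126 and 128 in controls and 149, 147 and 144 in knockouts. Every knockout lay above every control, and the arrays within each group differed little (means 125.0 ± 4.69 and 147 ± 2.74). The log2 fold change was 0.21 (SE 0.11, limma adjusted p = 0.795). Its residual SD was smaller than that of nearly all genes, larger than only 0.244% of them, and limma's borrowing of variance across genes raised it. Leaving out each array in turn gave Col6a1 log2 fold changes of 0.18 to 0.22, and after median centring its groups overlapped. Col6a2 read 126, 92.2, 135 and 116 in controls and 125, 126 and 136 in knockouts (log2 fold change 0.13), and Col6a3 had a log2 fold change of -0.04. Col6a6 (0.11) and Col6a4 (0.04) did not pass either. Col6a5 read 38.1, 207, 296 and 109 in controls and 154, 58.4 and 155 in knockouts, the widest spread of the members, while a second probe set for the same gene read 92.5 to 139 in controls and 107 to 140.2 in knockouts.

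Basement membrane chains had log2 fold changes above 0 in all 6 tested genes, with a median of 0.10 against 0.07 over all genes, though after median centring Col4a1 and Col4a2 were at or just under 0 (-0.0024 and -0.0030), as was Col4a1 after quantile normalization (-0.0023). The class median was 0.06 without control 2, 0.05 without control 3 and 0.19 without control 4. Col4a1 and Col4a2, the ubiquitous type IV chains, had differences within their spread. Col4a1 read 114 ± 12.7 and 118 ± 7.001 (log2 fold change 0.06, 95% interval -0.20 to 0.32), and Col4a2 90.7 ± 10.9 and 94.6 ± 4.10 (0.06, 95% interval -0.21 to 0.33). Their difference had an SD of 0.08 over the 7 arrays, against 0.11 for each chain. Control 4 was the highest control for both, as in 26 of the 40 members, and pairs of unrelated chains were not compared. In RefSeq of GRCm38.p6 Col4a1 and Col4a2 lie head to head on chromosome 8, with annotated starts 21 bases apart on opposite strands. The part of this arrangement in their readings was not tested. Col18a1, whose product carries the endostatin domain, read 80.0, 74.4, 77.0 and 97.2 in controls and 102, 101 and 116 in knockouts. Every knockout lay above every control, with control 4 the nearest. Its log2 fold change was 0.32 (SE 0.13, 95% interval 0.05 to 0.59). The limma adjusted p was 0.743 and the unadjusted limma p was 0.0251. Without knockout 3 the unadjusted limma p of Col18a1 was 0.118, and without control 4 it was 0.00440. Col7a1, the anchoring fibril chain, had a log2 fold change of 0.21, and Col15a1 and Col4a3 had 0.09 and 0.12. The 10 endothelial markers, from cells that make basement membrane, had summed intensities of 1964 to 2392 in controls and 1912 to 2248 in knockouts. Under the signal filter, Col4a4 read 66.6 ± 18.3 and 70.3 ± 4.31, and Col4a6 read 48.1 ± 11 and 57.6 ± 3.77. Col4a4, Col4a5 and Col4a6 had log2 fold changes of 0.09, 0.31 and 0.21 in the fit without that filter, where Col4a5 had an unadjusted limma p of 0.0463. Col4a5 read 64.9, 58.0, 48.7 and 69.9 in controls and 85.2, 69.3 and 80.1 in knockouts.

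None of the 7 cartilage collagen genes passed the test, and their median log2 fold change was 0.20. Col2a1, the main chain of cartilage fibrils, read 181, 144, 164 and 180 in controls and 187, 202 and 183 in knockouts. The knockouts lay above every control by a narrow margin (log2 fold change 0.18, 95% interval -0.09 to 0.44, limma adjusted p = 0.826), and after quantile normalization or median centring the Col2a1 groups overlapped. Col10a1, the marker chain of hypertrophic chondrocytes, read 158, 111, 110.1 and 136 in controls and 165, 152 and 149.9 in knockouts. Control 1 lay among the knockouts, and the log2 fold change was 0.26 (limma adjusted p = 0.804). Col11a1, which starts cartilage fibrils and is also made in bone, read 187, 150.3, 212 and 173 in controls and 147, 169 and 133 in knockouts. Its groups overlapped, and its log2 fold change of -0.25 (95% interval -0.55 to 0.05) was on the other side of 0 from Col2a1. The type IX chains Col9a1, Col9a2 and Col9a3, which decorate cartilage fibrils, had log2 fold changes of 0.26, 0.20 and 0.29. The SD over arrays was 0.24 for Col9a1, 0.21 for Col9a2 and 0.30 for Col9a3. For the differences it was 0.10 (Col9a1 and Col9a2), 0.14 (Col9a1 and Col9a3) and 0.17 (Col9a2 and Col9a3). Control 4 was the highest control for all 3 chains, as in 26 of the 40 members. Pairs of unrelated chains were not compared in this way. Col11a2 had a log2 fold change of -0.0013. The summed intensity of the 6 tested chondrocyte markers of 10 listed ran from 633 to 2209 in controls and 721 to 1881 in knockouts. These groups overlapped, and 4 of the 6 markers had log2 fold changes above 0 and 2 below. Sox9, the chondrocyte master regulator, read 203 ± 39.5 and 239 ± 32.7 (0.23). Comp (-0.82) was lower and the 1 marker at an unadjusted p under 0.05, and Chad had -0.44.

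Transmembrane collagens had log2 fold changes of 0.08 (Col13a1) to 0.23 (Col25a1), all 4 above 0 and none past the threshold. Col25a1 read 69.3, 66.6, 62.7 and 82.2 in controls and 87.6, 79.7 and 87.7 in knockouts, so only control 4 overlapped. Of the remaining genes, Col8a1, a short-chain network collagen, read 295, 230.1, 379 and 369 in controls and 298, 346 and 263 in knockouts (log2 fold change -0.05), Col26a1 had 0.06 and Col28a1 0.15. Col8a2 lay under the filter, read 55.9 ± 8.95 and 65.1 ± 11.1, and had 0.17 in the fit without it. Col26a1 and Col6a4, close to 0, turned below 0 after quantile normalization or median centring.

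Across classes the members followed 2 patterns among the control arrays. In 26 of the 40 members control 4 was the highest control, and control 3 or control 2 was the lowest control in 37. These arrays also held the highest first quartile of intensity among the controls (control 4, 61.0) and the lowest (control 3, 40.5, and control 2, 49.96). In 10 members control 3 was instead the highest control: Col1a1, Col1a2, Col3a1, Col5a2, Col6a2, Col6a3, Col6a5, Col8a1, Col11a1 and Col12a1. Of the 26 members with control 4 highest, 24 had a log2 fold change above 0, and of the 10 with control 3 highest, 9 were below 0. Since the controls enter the fold change, these counts describe the readings and test nothing.

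**Figure D3:**
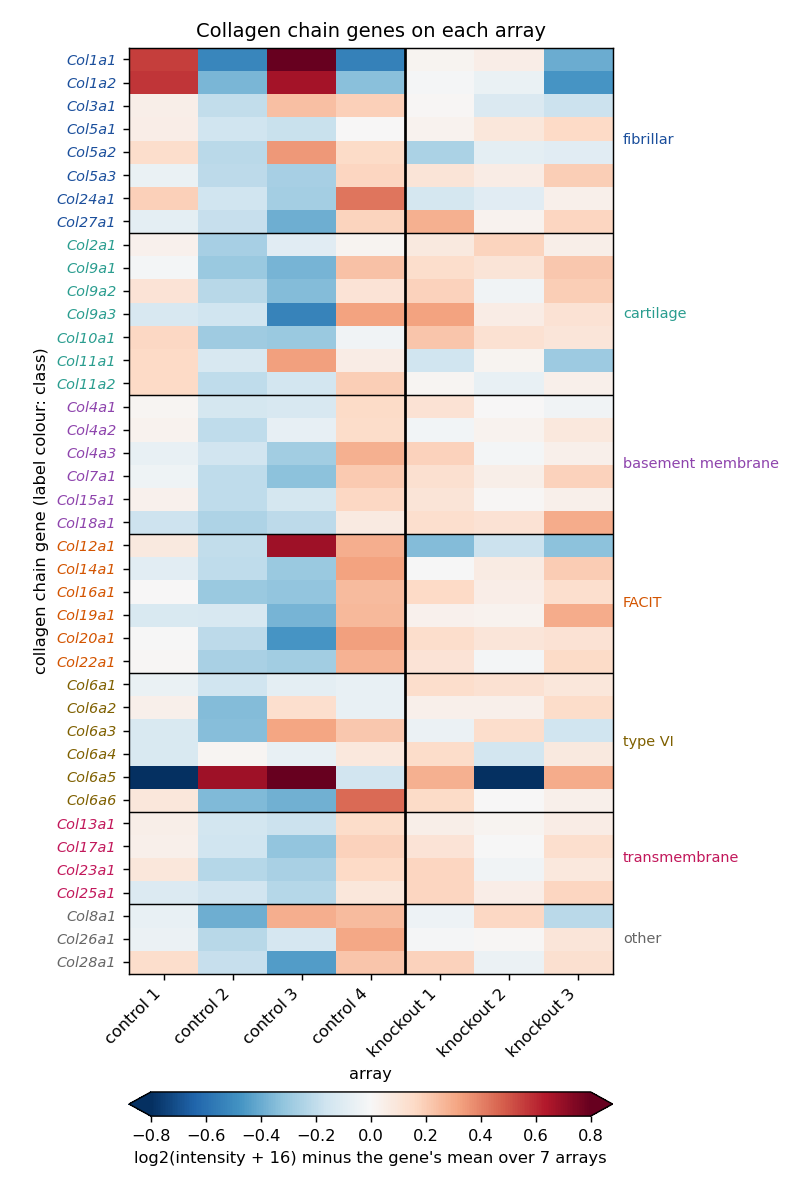
Log2(intensity + 16) of the 40 tested collagen chain genes on the 7 arrays, each minus the gene's mean over all arrays (red above, blue below; values beyond 0.8 take the end colours), with genes grouped by class. In 26 genes control 4 is the highest control, while the type I chains, Col12a1 and 7 other genes are highest in control 3.

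Of the single arrays left out in turn, control 4 changed the number of members passing the looser rule the most. Without control 4, 12 of 40 members were higher and 2 were lower at an unadjusted p under 0.05, where 9.55% of all genes were higher and 3.53% lower. None of the 14 passed the adjusted threshold in limma. The higher members were Col18a1 (log2 fold change 0.39), Col7a1 (0.31), Col9a1 (0.38), Col9a3 (0.44), Col27a1 (0.38), Col5a3 (0.30), Col25a1 (0.30) and the FACIT genes Col14a1, Col16a1, Col19a1, Col20a1 and Col22a1 (0.26 to 0.35). The lower members were Col12a1 (-0.47) and Col1a2 (-0.47). With quantile normalization added, 8 members were higher and 2 lower, against 6.64% and 5.69% of all genes. With median centring added, 4 were higher and 5 lower, against 4.57% and 6.22%. Control 4 also had the highest mean log2 level of the osteocyte markers among the controls (9.42, the others 8.48 to 8.72). Its levels of erythroid markers (8.76, the others 9.57 to 9.81) and B cell markers (7.65, the others 8.23 to 8.72) were the lowest. The part of the array's overall signal and of its cell composition in these members was not tested.

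The genes that fold, export, process, bind and degrade collagen were examined beside the chains. Of 53 tested pathway genes from 5 lists, 11 were lower and 0 higher at an unadjusted p under 0.05, against 2.71% lower and 3.78% higher over all genes. Among the 40 chains these counts were 1 and 1. None of the 53 passed the adjusted threshold. The median log2 fold change was -0.09 over the 53 genes, 0.14 over the chains and 0.07 over all genes. The difference between chains and pathway genes was not tested. The count of 11 was 4 without knockout 1, 5 without knockout 3 and 6 without control 3. In these settings 1.39%, 1.55% and 3% of all genes were lower, against 2.71% with all arrays.

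Of 15 tested folding and modification genes, 4 were lower by that rule and 11 had log2 fold changes below 0. Plod2, the lysyl hydroxylase of the telopeptides, read 371, 282, 410.0 and 789 in controls and 131, 251 and 175 in knockouts. Every knockout lay under every control, and the log2 fold change was -1.19 (SE 0.29, limma adjusted p = 0.562). Crtap and P3h1 form the prolyl 3-hydroxylase complex of type I collagen. Crtap read 157, 149, 195 and 184 in controls and 131, 138 and 135 in knockouts (log2 fold change -0.30, limma adjusted p = 0.756). P3h1 read 111, 86.9, 122 and 96.3 in controls and 78.1, 85.5 and 76.7 in knockouts (-0.31). In both genes the groups did not overlap. P4ha1, a prolyl 4-hydroxylase subunit, had a log2 fold change of -0.43, and -0.23 without control 4, with overlapping groups. The chaperone Serpinh1 (-0.22), the hydroxylase subunit P4hb (-0.01) and the isomerase Ppib (-0.07) did not pass.

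Lox, which starts cross-linking of secreted fibrils, read 185, 156, 184 and 154 in controls and 94.3, 92.5 and 94.3 in knockouts. The 3 knockouts differed little from each other and lay well under every control (log2 fold change -0.76, SE 0.12, 95% interval -1.01 to -0.50, limma adjusted p = 0.165). Without control 4 Lox passed the adjusted threshold (log2 fold change -0.80). It was the single processing and cross-linking gene of 8 tested that was lower by the looser rule. In the secretion list of 11, Creb3l2 and Sec24d were lower. Creb3l2, the transcription factor that site-1 protease releases for collagen export, read 133, 107, 133 and 148 in controls and 79.5, 106 and 101 in knockouts (log2 fold change -0.39, limma adjusted p = 0.660). Its knockout 2 reading lay just under control 2. Sec24d, a coat protein of export vesicles, had a log2 fold change of -0.27 with groups that did not overlap. Creb3l1, which is known to act on the Col1a1 promoter, also had -0.27, but its groups overlapped and it did not pass.

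Of 12 collagen receptor genes, Mrc2, an uptake receptor for collagen fragments, was lower (160.0 ± 44.5 and 109 ± 21.0, log2 fold change -0.48). Of 7 breakdown genes, Mmp14, Mmp2 and Fap were lower by the same rule, with log2 fold changes of -0.67, -0.45 and -0.56. Mmp14, a membrane collagenase, read 451, 314, 402 and 648 in controls and 246, 320 and 249 in knockouts, so knockout 2 lay just above control 2. Mmp13, the main bone collagenase, read 1044 ± 309 and 796 ± 479 (-0.49) with knockout 2 at 1345, and did not pass. Beside these lists stand the osteocyte markers, of which 8 of 13 measured were lower and 1 higher by the rule, and the osteoblast markers, of which 4 of 6 were lower. Their part in the pathway readings was not tested.

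**Figure D4:**
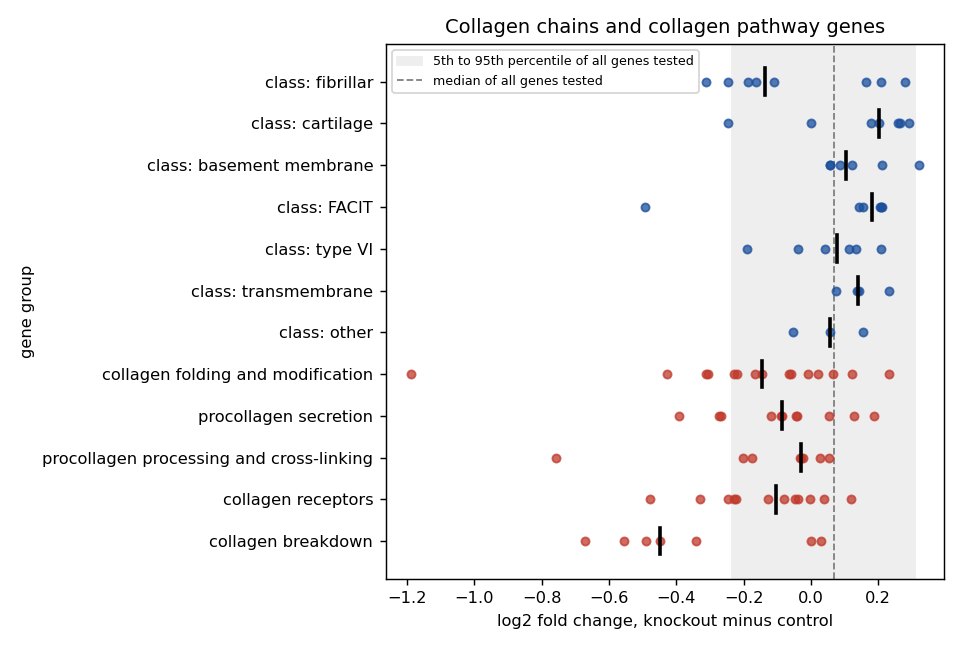
Log2 fold change (knockout minus control) of each tested gene as a point, by collagen class (blue) and by pathway list (red); black bars are group medians, the shaded band spans the 5th to 95th percentile of all genes tested (-0.23 to 0.31) and the dashed line is their median (0.07). Of the 40 chains, Col12a1, Col1a2, Col11a1 and Col5a2 lie left of the band and Col18a1 right of it, while Plod2 at -1.19, Lox at -0.76 and Mmp14 at -0.67 lie far outside it.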

How the data were processed

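RNA of long bone pieces was measured on 1 array per mouse, 4 control and 3 knockout. The deposited values are linear intensity per probe set, summarized by the authors with PLIER in Affymetrix Expression Console 1.4 per the submitters' processing notes; how background was corrected, the scaling between arrays and the build were not given in the sources used here. Of 35556 probe sets, 21789 name 1 gene, 1621 several and 12146 none in the annotation used. The deposited intensity was turned into log2(intensity + 16), the probe set with the highest mean was kept for each of 19938 genes, and genes under the 30th percentile of mean level (log2 6.42) were left out, so 13956 were tested. limma 3.58.1 (lmFit, eBayes with trend, R 4.3.3) compared the groups over all genes with Benjamini-Hochberg adjustment; intervals are 95%. The p-values measure the spread between these mice, and the number of arrays limits precision. The script was tested on simulated data.

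The members and lists were chosen with earlier results of these data known. Chains with an unadjusted p under 0.05 or groups that do not overlap, and the main chains of each class, are given in full; up to 4 genes with the smallest p are named per pathway list. The settings tried were 21, of which those without controls 3 and 4, and without control 4 together with another scaling, were added after seeing the data. Label numbers were checked and gave no sign of pairing, which cannot exclude it, and the main fit is unpaired.

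Marker lists not given with the results had these median log2 fold changes, with the tested genes of those listed: skeletal muscle -0.01 (7 of 10), adipocyte -0.20 (5 of 7), pericyte and smooth muscle -0.14 (8 of 8), marrow stroma -0.0019 (5 of 6), osteoclast -0.16 (5 of 7), erythroid 0.23 (7 of 11), B cell 0.39 (10 of 11), neutrophil -0.02 (11 of 11) and nerve 0.12 (3 of 5).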

Additional observations from a re-analysis of the deposited data

How the results depend on the processing

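No collagen chain gene passed the adjusted threshold under any of the 21 alternatives. The class medians recomputed there kept their sign in them, except that the fibrillar median of -0.14 came to 0 (-7.9e-05) with the filter at the 50th percentile. The number of chains at an unadjusted p under 0.05, 2 as reported, was 1 with the filter at the 50th percentile, 13 with array weights, 5 without controls 3 and 4, 10 without control 4 with quantile normalization and 9 without control 4 with median centring, and it ran from 0 to 14 when 1 array was left out. Chains whose groups did not overlap, 3 as reported, were 16, 16 and 17 under those last 3 settings and 3 to 15 with 1 array left out. Groups with fewer arrays separate more readily in any gene, and the share over all genes under these settings is not given here. These counts are therefore no result about the chains. Over all genes, 905 had an unadjusted p under 0.05, against 1876 with array weights, 1506 without controls 3 and 4, 1721 and 1506 without control 4 with quantile normalization and with median centring, and 325 to 1826 with 1 array left out. The adjusted threshold was passed by 1 gene with median centring, 1 with robust eBayes, 5 with array weights, 2 without controls 3 and 4, 3 and 85 without control 4 with quantile normalization and with median centring, and 0 to 6 with 1 array left out. The 11 lower pathway genes became 3 without controls 3 and 4, 17 without control 4 with median centring, and 4 to 13 with 1 array left out. The share of all genes lower was 2.54%, 6.22% and 1.39% to 3.53% in these settings, against 2.71% as reported. The cause was not tested.

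With the label number as a replicate block, 84 genes passed the adjusted threshold, 1687 genes and 13 chains had an unadjusted p under 0.05, and no chain passed. Control 4 has no partner in that fit and drops out of it. The values gave no sign that equal numbers pair the mice: deviations of controls 1, 2 and 3 correlated with those of knockouts 1, 2 and 3 at 0.07, 0.15 and -0.53. The arrays are few and differ in their first quartile of intensity, so these correlations cannot exclude a pairing.

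Of the 44 chains 4 lay under the signal filter, and 8 of 40 tested chains had intervals reaching beyond 1.5-fold.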
